A study of Homo sapiens with 8 samples.

Results

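The transcripts of 38 genes of cell adhesion to the extracellular matrix were followed in LNCaP cells, a human prostate adenocarcinoma line, after depletion and re-expression of METTL3. The genes were taken by symbol from the count table and are 12 integrin subunits, 11 integrin activators and actin linkers, 7 signalling and scaffold proteins of the adhesion plaque, 6 matrix chains, the pseudogene LAMB2P1 and the hyaluronan receptor CD44. Of these, 36 had enough counts to be tested, among 15289 of the 27140 genes in the table, and ITGB3 and ITGB8 had too few.

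RNA was sequenced from 4 stable LNCaP lines transduced by lentivirus and kept under 1 µg/ml puromycin for selection, with 2 libraries a line. The mutant rescue carried a hairpin against METTL3 (shMETTL3) together with a hairpin-resistant METTL3 whose catalytic activity is dead. The wild-type rescue carried the same hairpin with a resistant wild-type METTL3, the knockdown carried the hairpin with a vector, and the control carried a control hairpin (shCtrl) with a vector. The labels do not give the number of clones in a line, nor whether its 2 libraries came from separate cultures, so p-values measure only the spread between these libraries, which may be technical. Construct and line coincide, so an effect of a construct cannot be told apart from other differences between the lines.

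Integrins are receptors of an alpha and a beta chain that bind laminins, collagens or fibronectin outside the cell. Talins and kindlins bind the beta chain's tail and switch the receptor on, while vinculin, alpha-actinins, zyxin and tensins tie it to actin and paxillin, FAK, ILK and p130Cas relay signals from the plaque. In normal prostate these receptors hold the epithelium to a laminin-rich basement membrane. METTL3 is the enzyme that writes m6A, a methyl mark on adenosines of messenger RNA that is often found near stop codons, within a consensus of which GGACT is the best known form.

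GGACT was searched on the transcript strand of 1 GENCODE transcript a gene (GRCh38), and 37 of the 38 genes had such a transcript and all 37 held the motif. Their median was 0.853 sites per kilobase, against 0.941 over 13248 tested genes with a transcript, of which 12129 held it. A site lay within 100 bases of the end of the coding sequence in 7 of the 37 (18.9%), against 22.4% of those tested genes. The stretches below are the sites nearest to the stop codon in 8 genes whose transcripts are described below, each 30 bases long, with GGACT in capitals. CAPN2, LAMA5, ACTN1, FERMT1, ILK and ITGB5 are among the 7 with a site within 100 bases, so these stretches are not typical of the 37. They are shown as sequence matches only, since methylation was not measured here.
TNS4, 3′ UTR, chr17:40477460-40477489 (minus strand): gaccaatctatgGGACTagggggattggca
CAPN2, 3′ UTR, chr1:223774895-223774924 (plus strand): aaaatcagccaaGGACTaagcttccataga
LAMA5, 3′ UTR, chr20:62309236-62309265 (minus strand): aggtgtctatttGGACTctaagctctacgg
ACTN1, coding sequence, chr14:68874890-68874919 (minus strand): gccaggtgctctGGACTacatgtccttctc
FERMT1, coding sequence, chr20:6077192-6077221 (minus strand): aacactcgatgaGGACTtgttccacaaatt
ILK, across the stop codon, chr11:6610599-6610628 (plus strand): gcaggacaagtaGGACTggaaggtccttgc
ITGB5, across the stop codon, chr3:124763612-124763641 (minus strand): caatggcactgtGGACTgatgtttccttct
ITGB1, 3′ UTR, chr10:32901372-32901401 (minus strand): aattcatgccagGGACTgacaaaagacttg
On knockdown TNS4, CAPN2, LAMA5, ACTN1 and ITGB5 fell, ITGB1 rose, and FERMT1 and ILK were not called. Any part of the motif in these changes was not tested.

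The libraries held 15200343 to 17893241 counts. The 38 genes took 0.481% to 0.527% of the counts of a library, least in both wild-type rescue libraries and most in both control libraries. METTL3 had 333 and 334 CPM in mutant rescue libraries, 309 and 325 in wild-type rescue libraries, 26.2 and 31.3 in knockdown libraries, and 68.4 and 68.5 in control libraries. Both knockdown libraries lay below both control libraries and all 4 rescue libraries lay above them. The knockdown fell below the control (log2 fold change -1.26 with SE 0.05 and adjusted p = 1.5e-48 by edgeR), and the mutant rescue was slightly above the wild-type rescue (log2 fold change 0.07 with SE 0.03 and adjusted p = 0.0161 by edgeR). That last call ended when either mutant rescue library was left out (adjusted p = 0.0643 and 0.0939) and also when the first wild-type rescue library was (0.328), and by DESeq2's Wald test (0.193). The counts do not tell endogenous METTL3 from the introduced one. CPM here are counts scaled to a common library size (TMM), and a gene is said to rise or fall where edgeR's adjusted p over all 15289 tested genes was under 0.05.

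All 11 luminal prostate markers had counts in every library. Of 8 fibroblast markers, 6 or 7 had counts in a given library, and COL1A2, a fibroblast collagen, was at 0 in all 8 libraries. The summed luminal level was 8676 and 8646 CPM in the mutant rescue, 8657 and 8741 in wild-type rescue libraries, 8504 and 8577 in knockdown libraries, and 10476 and 10423 in the control. It was thus lower in every library with the METTL3 hairpin than in the control, and its part in the results below was not tested. Markers of other cells were low. The summed basal level, most of it DST, was 41.6 and 40.8 CPM in the mutant rescue, 46.9 and 45.8 in wild-type rescue libraries, 54.3 and 49.2 in knockdown libraries, and 34.6 and 35.8 in the control. It was thus highest in the knockdown and lowest in the control, 2 of the 3 tested basal markers rose in the knockdown against the control, and the part of this shift in the results below was not tested. Fibroblast markers summed to 88.9 to 116 CPM, most of it COL1A1, smooth muscle markers to 5.16 to 7.11 CPM and leukocyte markers to 1.26 to 2.32 CPM. Endothelial markers summed to 9.28 to 10.9 CPM in knockdown libraries and to 5.79 to 7.64 CPM in the other 6. In bulk RNA, fewer cells of a kind and less RNA per cell cannot be told apart.

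Per length, the most abundant of these transcripts encoded laminin gamma1, alpha-actinin-4, fibronectin and integrin beta1. Over the 8 libraries LAMC1 averaged 146 CPM per kilobase, above 97.9% of tested genes, ACTN4 101, FN1 64.9 and ITGB1 61.0. The alpha chains ranged from ITGAV at 31.3 and ITGA5 at 18.7, both partners for fibronectin-type ligands, through the laminin receptors ITGA6 at 15.2 and ITGA3 at 6.03, to the collagen receptors ITGA2 at 2.42 and ITGA1 at 0.584 CPM per kilobase. Among beta chains ITGB1 stood far above ITGB5 at 8.24, ITGB4 at 1.51 and ITGB6 at 0.277, while ITGB3 had 0 to 3 counts a library and ITGB8 1 to 10. The main laminin chains by this measure were alpha5 (LAMA5, 33.3), beta2 (LAMB2, 53.0) and gamma1. Among pairs of related genes, TLN1 (24.4) stood above TLN2 (0.89), and FERMT2 (4.83) above FERMT1 (2.89).

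**Figure D1:**
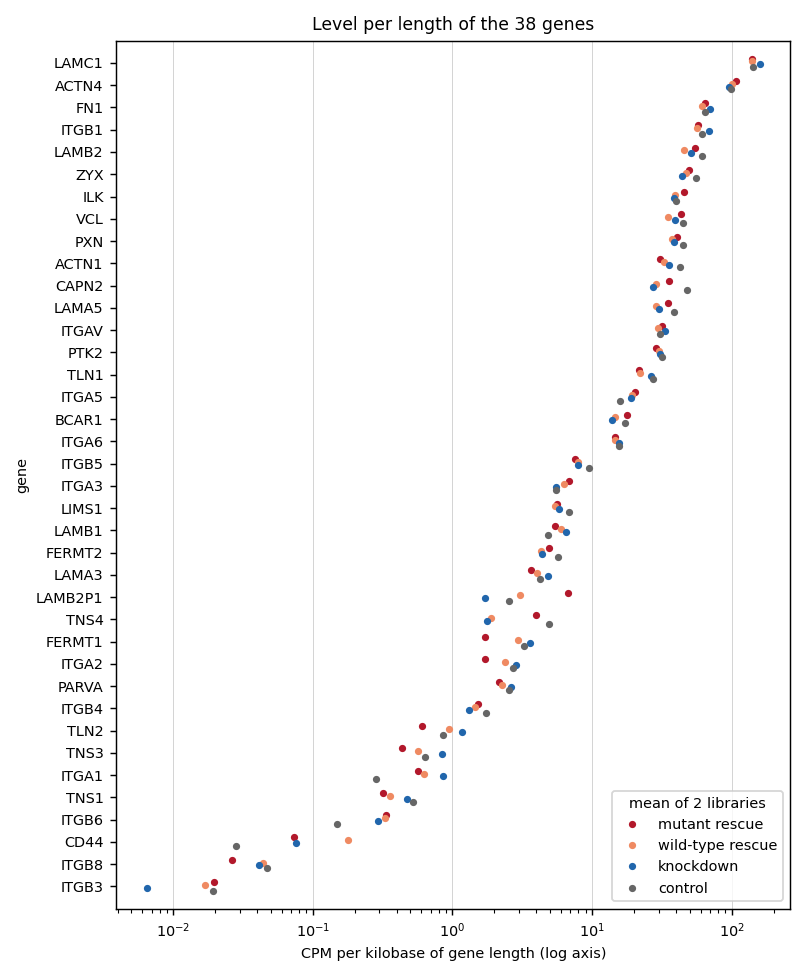
Mean level of each of the 38 genes in the 4 lines, in CPM per kilobase of gene length on a log axis, as the mean of 2 libraries a line. LAMC1 and ACTN4 are at the high end, ITGB3 and ITGB8 at the low end, and for most genes the 4 lines lie close together.

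The lines differed by little for many of these genes. In 18 of the 36 the highest line mean was less than 1.3 times the lowest, and in 6, ITGA1, ITGB6, FERMT1, TNS4, LAMB2P1 and CD44, it was over 2 times. ITGA6, the alpha chain of the laminin receptors alpha6beta1 and alpha6beta4, varied least, with 89.1 and 89.0 CPM in mutant rescue libraries, 89.9 and 88.0 in wild-type rescue libraries, 99.2 and 91.7 in knockdown libraries, and 95.1 and 96.0 in control libraries. Its knockdown libraries lay on both sides of the control libraries.

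**Figure D2:**
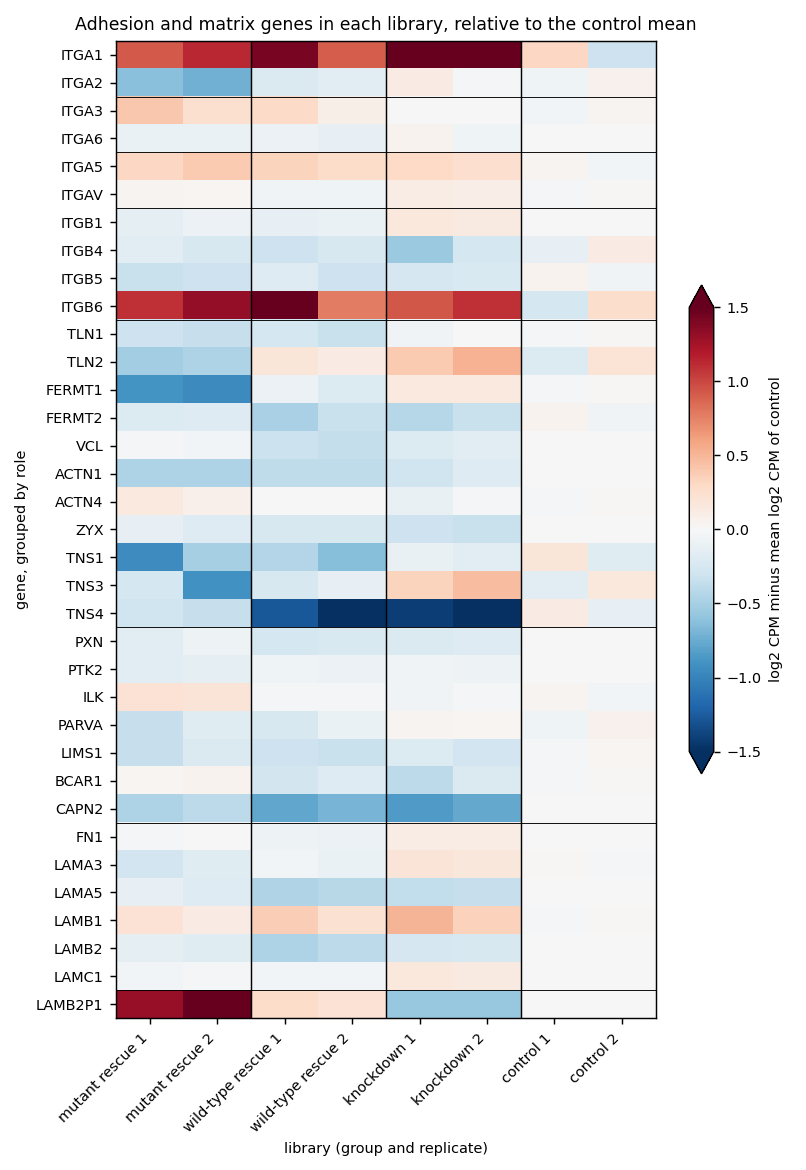
Level of 35 tested genes (CD44 is not drawn) in each of the 8 libraries, as log2 CPM minus the mean log2 CPM of the control, with colours held at ±1.5; libraries run from the mutant rescue at the left to the control at the right. TNS4 and CAPN2 are low in the knockdown and the wild-type rescue, LAMB2P1 is high in the mutant rescue, and FERMT1, ITGA2 and TLN2 are low there.

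The first comparison asks how these transcripts differ after depletion of METTL3. Knockdown against control called 26 of the 36 tested genes, 11 higher and 15 lower, while 48% of all tested genes were called, 22.9% higher and 25.1% lower. The plaque moved mostly down: 6 of 11 activators and linkers fell and 2 rose, and 4 of 7 signalling proteins fell and none rose. Those 4 were PXN, LIMS1, BCAR1 and the protease CAPN2. Of the 6 matrix chains 4 rose and 2 fell. Of the 10 integrin chains tested 5 rose and 2 fell. The median log2 fold change of the 36 was -0.03, against -0.01 over all tested genes. In absolute size the medians were 0.244 and 0.192. Both groups' libraries did not overlap in 29 of the 36, against 72.5% of all tested genes.

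TNS4, a short tensin that binds integrin beta tails but lacks the actin-binding part of other tensins, fell most. It is counted here with the activators and linkers all the same. It had 16.3 and 15.9 CPM in mutant rescue libraries, 8.31 and 7.13 in wild-type rescue libraries, 7.56 and 6.80 in knockdown libraries, and 21.8 and 18.5 in control libraries. Both knockdown libraries lay at less than 8 CPM and both control libraries above 18 CPM, with no overlap (log2 fold change -1.48 with SE 0.11 and adjusted p = 2.15e-26 by edgeR). CAPN2, the large subunit of the protease m-calpain that cuts talin during adhesion turnover, had 130.3 and 137 CPM in mutant rescue libraries, 104 and 111 in wild-type rescue libraries, 99.6 and 105 in knockdown libraries, and 179 and 179.5 in control libraries. All 6 libraries with the METTL3 hairpin lay below the control libraries, and CAPN2 fell in the knockdown (log2 fold change -0.81 with SE 0.04 and adjusted p = 9.96e-50 by edgeR).

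Of the linkers to actin, vinculin, which strengthens the talin link under force, had 241 and 238 CPM in mutant rescue libraries, 195 and 191 in wild-type rescue libraries, 212 and 219 in knockdown libraries, and 246 and 243 in control libraries. Knockdown lay below control in both libraries (log2 fold change -0.18 with SE 0.03 and adjusted p = 2.21e-09 by edgeR). Alpha-actinin-1, which crosslinks actin filaments, had 117 and 117 CPM in mutant rescue libraries, 124 and 124 in wild-type rescue libraries, 131 and 140.5 in knockdown libraries, and 161 and 161 in control libraries. ACTN1 was lower in every hairpin library than in the control, and the knockdown fell by 0.25 on the log2 scale (SE 0.03). ZYX, encoding zyxin, a LIM protein of mature adhesions, had 118 and 112 CPM in mutant rescue libraries, 108 and 108 in wild-type rescue libraries, 103 and 101 in knockdown libraries, and 127 and 128 in control libraries, again with no knockdown library reaching the control (log2 fold change -0.32 with SE 0.04 and adjusted p = 1.59e-13 by edgeR). FERMT2, encoding kindlin-2, an activator of beta1 and beta3 integrins, had 17.0 and 17.1 CPM in mutant rescue libraries, 14.0 and 15.5 in wild-type rescue libraries, 14.6 and 15.6 in knockdown libraries, and 20.3 and 18.9 in control libraries. Kindlin-2 transcripts thus fell in the knockdown (log2 fold change -0.38 with SE 0.09 and adjusted p = 0.000212 by edgeR). Alpha-actinin-4, the most abundant linker, had 456 and 433 CPM in mutant rescue libraries, 409.6 and 413 in wild-type rescue libraries, 379 and 404 in knockdown libraries, and 404 and 417 in control libraries. Its fall was small (log2 fold change -0.07 with SE 0.02 and adjusted p = 0.0096 by edgeR) and ended without knockdown replicate 1 (adjusted p = 0.535) or control replicate 2 (0.393).

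TLN2, a second talin, moved the other way. It had 6.88 and 7.18 CPM in mutant rescue libraries, 11.2 and 10.7 in wild-type rescue libraries, 12.9 and 14.2 in knockdown libraries, and 8.59 and 11.3 in control libraries. Both knockdown libraries lay above both control libraries (log2 fold change 0.44 with SE 0.11 and adjusted p = 0.000493 by edgeR), but the call ended without control replicate 1 (adjusted p = 0.104). TLN1, the main talin per length, had 184 and 179.8 CPM in mutant rescue libraries, 191 and 182 in wild-type rescue libraries, 221 and 229 in knockdown libraries, and 226 and 232 in control libraries, and its knockdown and control libraries overlapped (log2 fold change -0.03 with SE 0.03 and adjusted p = 0.425 by edgeR). Tensin-3 (TNS3) rose too, at a mean under 5 CPM (log2 fold change 0.39 with SE 0.16 and adjusted p = 0.0377 by edgeR), and lost the call without knockdown replicate 1 (adjusted p = 0.0622), knockdown replicate 2 (0.175) or control replicate 1 (0.329). TNS1 and FERMT1 were not called, at log2 fold changes of -0.15 and 0.14.

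Among signalling proteins, BCAR1 encodes p130Cas, a scaffold that is phosphorylated when adhesions are stretched. It had 95.1 and 96.8 CPM in mutant rescue libraries, 77.1 and 81.2 in wild-type rescue libraries, 70.7 and 79.7 in knockdown libraries, and 91.7 and 94.3 in control libraries. Both knockdown libraries were under both control libraries (log2 fold change -0.31 with SE 0.04 and adjusted p = 9.68e-10 by edgeR). PXN, encoding the scaffold paxillin, had 167 and 178 CPM in mutant rescue libraries, 157 and 161 in wild-type rescue libraries, 162 and 165 in knockdown libraries, and 189 and 187 in control libraries, a fall of 0.20 on the log2 scale in the knockdown (SE 0.03). LIMS1 (PINCH1), the LIM partner of ILK, fell by 0.25 on the log2 scale (SE 0.06). The other two proteins of that complex, the pseudokinase ILK and its actin-binding partner PARVA, were not called, at log2 fold changes of -0.04 (SE 0.04) and 0.03 (SE 0.08), and neither was PTK2, encoding FAK (-0.06, SE 0.03).

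Integrin beta1, the partner of most alpha chains listed here, had 229.8 and 237 CPM in mutant rescue libraries, 231 and 235 in wild-type rescue libraries, 282 and 277 in knockdown libraries, and 253 and 251 in control libraries. The knockdown was the highest of the 4 lines, above the control in both libraries (log2 fold change 0.15 with SE 0.03 and adjusted p = 1.82e-07 by edgeR). ITGA5, the fibronectin receptor's alpha chain, had 83.4 and 88.0 CPM in mutant rescue libraries, 84.4 and 81.4 in wild-type rescue libraries, 82.6 and 80.2 in knockdown libraries, and 69.3 and 65.1 in control libraries, with the control libraries the lowest 2 of the 8 (log2 fold change 0.28 with SE 0.05 and adjusted p = 9.41e-08 by edgeR). ITGAV, the vitronectin receptor's alpha chain, had 229 and 226 CPM in mutant rescue libraries, 215 and 213 in wild-type rescue libraries, 241 and 238 in knockdown libraries, and 219.9 and 225 in control libraries, and its rise in the knockdown was small (0.11, SE 0.03). ITGA1, a collagen receptor chain at a mean under 5 CPM, rose by 1.60 on the log2 scale (SE 0.25), and ITGB6, also under 5 CPM, by 0.98 (SE 0.39, edgeR adjusted p = 0.0274). The ITGB6 call ended without knockdown replicate 1 (adjusted p = 0.0571), knockdown replicate 2 (0.113) or control replicate 1 (0.200).

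Of the other beta chains, ITGB5 and ITGB4 fell. ITGB5, a partner of alphaV, had 32.8 and 33.4 CPM in mutant rescue libraries, 36.2 and 33.5 in wild-type rescue libraries, 34.9 and 35.2 in knockdown libraries, and 42.8 and 40.1 in control libraries, with every hairpin library below both control libraries (log2 fold change -0.24 with SE 0.06 and adjusted p = 0.000463 by edgeR). ITGB4, the partner of alpha6 in hemidesmosomes, had 9.59 and 9.13 CPM in mutant rescue libraries, 8.70 and 9.12 in wild-type rescue libraries, 7.33 and 9.02 in knockdown libraries, and 9.92 and 11.8 in control libraries. Its fall (log2 fold change -0.42 with SE 0.12 and adjusted p = 0.00272 by edgeR) ended without knockdown replicate 1 (adjusted p = 0.153) or control replicate 2 (0.151). ITGA2, ITGA3 and ITGA6 were not called between knockdown and control, at log2 fold changes of 0.06, 0.00 and 0.00.

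Matrix chains split by chain. LAMB1, the laminin beta1 chain, had 33.0 and 30.8 CPM in mutant rescue libraries, 36.5 and 33.1 in wild-type rescue libraries, 40.3 and 36.2 in knockdown libraries, and 28.1 and 28.7 in control libraries. Both knockdown libraries were above both control libraries (log2 fold change 0.44 with SE 0.07 and adjusted p = 7.62e-09 by edgeR). LAMB2, the beta2 chain, had 319 and 312 CPM in mutant rescue libraries, 258 and 269.7 in wild-type rescue libraries, 296 and 300.4 in knockdown libraries, and 356 and 352 in control libraries, and here both knockdown libraries were below both control libraries (log2 fold change -0.25 with SE 0.02 and adjusted p = 1.24e-17 by edgeR). Within a library, the counts of LAMB2 for each count of LAMB1 were 9.67 and 10.1 in the mutant rescue, 7.06 and 8.15 in wild-type rescue libraries, 7.34 and 8.31 in knockdown libraries, and 12.7 and 12.3 in the control. The ratio was lower in all hairpin libraries than in the control and was higher in both mutant rescue libraries than in any wild-type rescue or knockdown library.

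LAMA5, the alpha chain of the laminins found in most adult basement membranes, had 409.7 and 388 CPM in mutant rescue libraries, 325 and 334 in wild-type rescue libraries, 344 and 350.2 in knockdown libraries, and 443 and 448 in control libraries, a fall in the knockdown to levels that did not reach the control (log2 fold change -0.36 with SE 0.02 and adjusted p = 8.7e-32 by edgeR). LAMA3, the alpha chain of the epithelial laminin that alpha6beta4 binds, had 39.4 and 42.2 CPM in mutant rescue libraries, 46.5 and 44.8 in wild-type rescue libraries, 54.8 and 53.9 in knockdown libraries, and 48.6 and 47.4 in control libraries, with the knockdown the highest line (log2 fold change 0.18 with SE 0.05 and adjusted p = 0.00217 by edgeR). LAMC1, shared by most laminins, had 1101 and 1104 CPM in mutant rescue libraries, 1103 and 1102 in wild-type rescue libraries, 1266 and 1246 in knockdown libraries, and 1128 and 1135 in control libraries. The 6 other libraries lay within 1101 to 1135 CPM and the knockdown above them (log2 fold change 0.15 with SE 0.02 and adjusted p = 7.89e-13 by edgeR). FN1, encoding fibronectin, had 574 and 584 CPM in mutant rescue libraries, 551 and 548 in wild-type rescue libraries, 626 and 627 in knockdown libraries, and 584 and 577 in control libraries, also highest in the knockdown (log2 fold change 0.11 with SE 0.02 and adjusted p = 1.38e-06 by edgeR).

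By DESeq2's Wald test 6 of the calls between knockdown and control ended. These were LAMA3 (adjusted p = 0.0607), ITGB4 (0.0851), LAMB2P1 (0.1), ITGB6 (0.151), ACTN4 (0.157) and TNS3 (0.258), whose log2 fold changes kept their sign.

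Fold changes of these genes moved with gene length. The tested genes had a median length of 5439 bases (1543 to 11649), against 3194 over all tested genes, and 33 of the 36 were above it. Between knockdown and control the Spearman correlation of log2 fold change with length was 0.411 over the 36 genes and 0.128 over all tested genes, as a description of genes that share their libraries. With each library's trend over length removed, 7 of the 36 rose and 16 fell. ITGAV (log2 fold change 0.05), TNS3 (0.32), FN1 (0.02) and LAMA3 (0.07) were then no longer called, and TLN1 fell by 0.11. The falls of TNS4 (-1.47), CAPN2 (-0.79) and LAMA5 (-0.48) and the rises of LAMB1 (0.40) and ITGB1 (0.16) held with the trend removed. LAMC1 stayed called but shrank from 0.15 to 0.08.

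**Figure D3:**
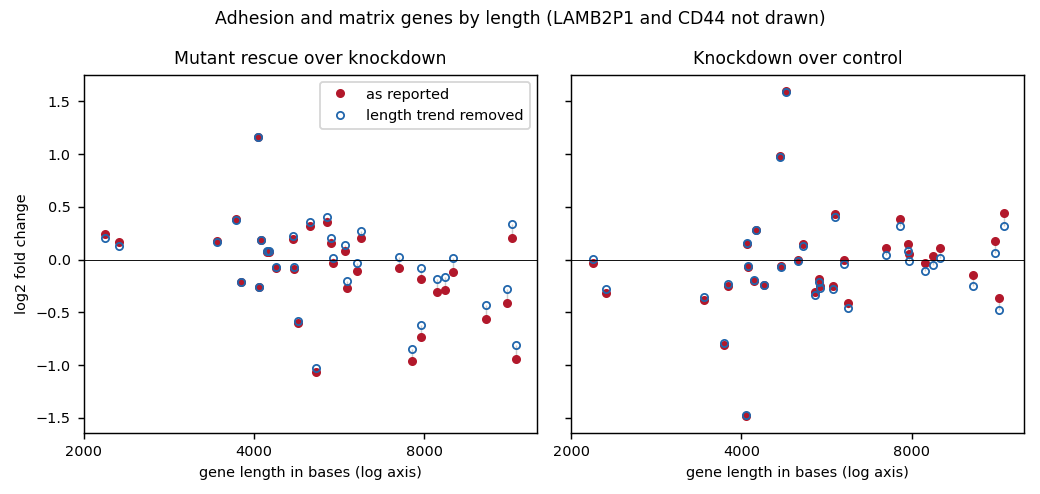
Log2 fold change of the adhesion and matrix genes against gene length in bases (log axis), for the mutant rescue over the knockdown and for the knockdown over the control; filled points are values as reported and open points have each library's length trend removed (LAMB2P1 and CD44 are not drawn). The longest genes move most between filled and open points, LAMA5 from -0.36 to -0.48 for the knockdown over the control.

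The second comparison asks whether wild-type METTL3 returns these transcripts to the control level. Wild-type rescue against knockdown called 17 of the 36, 3 higher and 14 lower, while 24% of all tested genes were called, 10.8% higher and 13.2% lower. Libraries of the 2 lines did not overlap in 24 of the 36, against 57.7% of all tested genes. The 14 that fell held 5 of the 6 matrix chains and 6 of 11 activators and linkers, and edgeR called 0 of the 7 signalling proteins (1 at an unadjusted p under 0.05, 0 by DESeq2). The median log2 fold change was -0.09, against 0.01 over all tested genes. In absolute size the medians were 0.151 and 0.114.

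Of the transcripts that had risen in the knockdown, ITGB1 was lower in the wild-type rescue than in the knockdown (log2 fold change -0.26 with SE 0.03 and adjusted p = 7.88e-17 by edgeR), as were LAMC1 (-0.19, SE 0.02), FN1 (-0.19, SE 0.02), LAMA3 (-0.26, SE 0.05) and ITGAV (-0.16, SE 0.03), TLN2 (-0.31, SE 0.11) and TNS3 (-0.57, SE 0.16). The others that had risen were not called against the knockdown, namely ITGA5 (0.02, SE 0.04), ITGB6 (0.14, SE 0.32), LAMB1 (-0.14, SE 0.06) and ITGA1 (-0.47, SE 0.20). Without wild-type rescue replicate 1, LAMB1 (adjusted p = 0.0325) and ITGA1 (0.0237) were called lower, as was LAMB1 without knockdown replicate 2 (0.0265). These comparisons share the knockdown libraries. TLN1, which had not been called between knockdown and control, fell by 0.27 on the log2 scale (SE 0.03), with all 4 rescue libraries below all knockdown and control libraries. Vinculin fell further, by 0.16 (SE 0.03), and LAMB2 by 0.18 (SE 0.03).

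TNS4 (log2 fold change 0.09, SE 0.13) and CAPN2 (0.07, SE 0.04) were not called against the knockdown. ZYX, BCAR1 and PXN were not called either, at 0.08, 0.08 and -0.04. The 3 rises were ITGA3, ACTN4 and LAMB2P1. ITGA3 (log2 fold change 0.19 with SE 0.07 and adjusted p = 0.04 by edgeR) lost its call without wild-type rescue replicate 1 (adjusted p = 0.527), knockdown replicate 1 (0.146), knockdown replicate 2 (0.125), control replicate 1 (0.0546) or control replicate 2 (0.0541), and ACTN4 (log2 fold change 0.07 with SE 0.02 and adjusted p = 0.0141 by edgeR) without wild-type rescue replicate 2 (0.0676) or knockdown replicate 1 (0.609).

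With the length trend removed, 4 of the 36 rose and 9 fell. ITGAV, LAMA3, TLN2 and ITGA2 were then no longer called, LAMA5 went from -0.07 to 0.06, not called, and BCAR1 became higher (0.13). FN1 and LAMC1 stayed called but shrank, FN1 from -0.19 to -0.07 and LAMC1 from -0.19 to -0.08. Over the 36 genes the Spearman correlation of log2 fold change with length was -0.558, against -0.346 over all tested genes. LAMA5's fall also ended without wild-type rescue replicate 1 (adjusted p = 0.165) or knockdown replicate 2 (0.136), and those of ITGA2, TLN2, FERMT1, ACTN1 and TNS3 ended without at least 1 library, at adjusted p of up to 0.328, 0.213, 0.156, 0.219 and 0.0585. The libraries in question were knockdown replicate 1 for ITGA2, knockdown replicate 2 for TLN2, ACTN1 and TNS3, and wild-type rescue replicate 2 for FERMT1. ITGA2 also ended without wild-type rescue replicate 1 (0.110) or 2 (0.0550), TLN2 without wild-type rescue replicate 1 (0.0503) or 2 (0.151), and FERMT1 without knockdown replicate 1 (0.0596). DESeq2's Wald test ended the calls of ACTN1 (adjusted p = 0.0510), LAMA5 (0.0839), ACTN4 (0.162), ITGA2 (0.168) and ITGA3 (0.237), and it gave no adjusted p for TLN2, FERMT1, TNS3 and LAMB2P1.

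The mutant rescue is a separate line that carries the same hairpin with an introduced METTL3 lacking its catalytic activity. Against the knockdown, 29 of the 36 were called, 12 higher and 17 lower, while 51.7% of all tested genes were called, 25.9% higher and 25.8% lower. Libraries did not overlap in 33 of the 36, against 74% of all tested genes. The median absolute log2 fold change of the 36 was 0.206, against 0.216 over all tested genes. More were thus called at a typical change that was no larger. Signalling proteins rose in 4 of 7 and fell in 2. Linkers and activators rose in 4 of 11 and fell in 6. Of the 10 integrin chains 1 rose and 5 fell, and of the 6 matrix chains 2 rose and 4 fell.

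TNS4 stood at more than 15 CPM in both mutant rescue libraries, against less than 8 CPM in both knockdown libraries (log2 fold change 1.16 with SE 0.12 and adjusted p = 2.57e-17 by edgeR). CAPN2 (log2 fold change 0.39 with SE 0.04 and adjusted p = 2.17e-18 by edgeR), BCAR1 (log2 fold change 0.35 with SE 0.04 and adjusted p = 3.36e-12 by edgeR) and VCL (log2 fold change 0.15 with SE 0.03 and adjusted p = 5.24e-07 by edgeR) rose too. LAMA5 rose by 0.20 on the log2 scale (SE 0.02), ACTN4 by 0.18 (SE 0.02) and ZYX by 0.16 (SE 0.04). ILK, level across the other lines, had 101 and 99.3 CPM in mutant rescue libraries, 85.1 and 85.7 in wild-type rescue libraries, 84.1 and 85.8 in knockdown libraries, and 89.4 and 84.8 in control libraries. Both mutant rescue libraries were above all other libraries (log2 fold change 0.24 with SE 0.04 and adjusted p = 2.29e-07 by edgeR). ITGA3, the laminin receptor's alpha3 chain, had 36.6 and 32.6 CPM in mutant rescue libraries, 33.8 and 29.5 in wild-type rescue libraries, 27.7 and 27.6 in knockdown libraries, and 26.8 and 28.5 in control libraries, and rose in the mutant rescue over the knockdown (log2 fold change 0.32 with SE 0.07 and adjusted p = 3.57e-05 by edgeR).

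FERMT1, encoding kindlin-1, the kindlin of epithelia, fell most against the knockdown. It had 9.06 and 8.69 CPM in mutant rescue libraries, 15.8 and 14.6 in wild-type rescue libraries, 18.6 and 18.6 in knockdown libraries, and 16.6 and 17.0 in control libraries. Both mutant rescue libraries lay under 10 CPM and all other libraries above 14 CPM (log2 fold change -1.07 with SE 0.11 and adjusted p = 1.31e-17 by edgeR). TLN2 fell by 0.94 (SE 0.12) and TNS3 by 0.96 (SE 0.18). ITGA2, the alpha2 chain of a collagen receptor, had 14.0 and 13.1 CPM in mutant rescue libraries, 18.6 and 19.3 in wild-type rescue libraries, 23.6 and 21.2 in knockdown libraries, and 20.7 and 22.5 in control libraries, again lowest in the mutant rescue (log2 fold change -0.73 with SE 0.09 and adjusted p = 3.28e-12 by edgeR). LAMA3 fell by 0.41 on the log2 scale (SE 0.05), TLN1 by 0.30 (SE 0.03), ITGB1 by 0.26 (SE 0.03) and LAMC1 by 0.19 (SE 0.02). PARVA had 17.6 and 19.8 CPM in mutant rescue libraries, 18.9 and 20.9 in wild-type rescue libraries, 22.9 and 22.9 in knockdown libraries, and 21.4 and 23.4 in control libraries; its fall (log2 fold change -0.29 with SE 0.08 and adjusted p = 0.00205 by edgeR) ended without mutant rescue replicate 1 (adjusted p = 0.0836).

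Several of these calls ended when 1 library was left out. ITGA1 ended without mutant rescue replicate 1 (adjusted p = 0.104) or knockdown replicate 1 (0.0522), ITGA6 without either mutant rescue library (0.0931 and 0.110) or knockdown replicate 1 (0.537), and TNS1 without mutant rescue replicate 1 (0.183) or knockdown replicate 1 (0.0548). LAMB1 ended without knockdown replicate 1 (0.0620), LAMB2 without mutant rescue replicate 1 (0.0675), ITGAV without mutant rescue replicate 2 (0.0970) or knockdown replicate 1 (0.0887), PTK2 without either mutant rescue library (0.0848 and 0.0689) or knockdown replicate 1 (0.126), and PXN without mutant rescue replicate 2 (0.599), knockdown replicate 1 (0.205), knockdown replicate 2 (0.0541), control replicate 1 (0.0511) or control replicate 2 (0.0506). DESeq2's Wald test ended the calls of LAMB2 (0.0658), ITGAV (0.0807), TNS1 (0.0948), PTK2 (0.109), ITGA1 (0.136), ITGA6 (0.154) and PXN (0.238). Log2 fold change and length had a Spearman correlation of -0.555 over the 36 genes, against -0.179 over all tested genes. With the length trend removed 12 rose and 12 fell. PARVA then stood at -0.17 (adjusted p = 0.0886), PTK2 at -0.07 (0.0876), ITGA6 at -0.03 (0.524), ITGAV at 0.03 (0.454) and FN1 at 0.01 (0.634), all 5 no longer called. LAMC1 stayed called but shrank from -0.19 to -0.08.

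**Figure D4:**
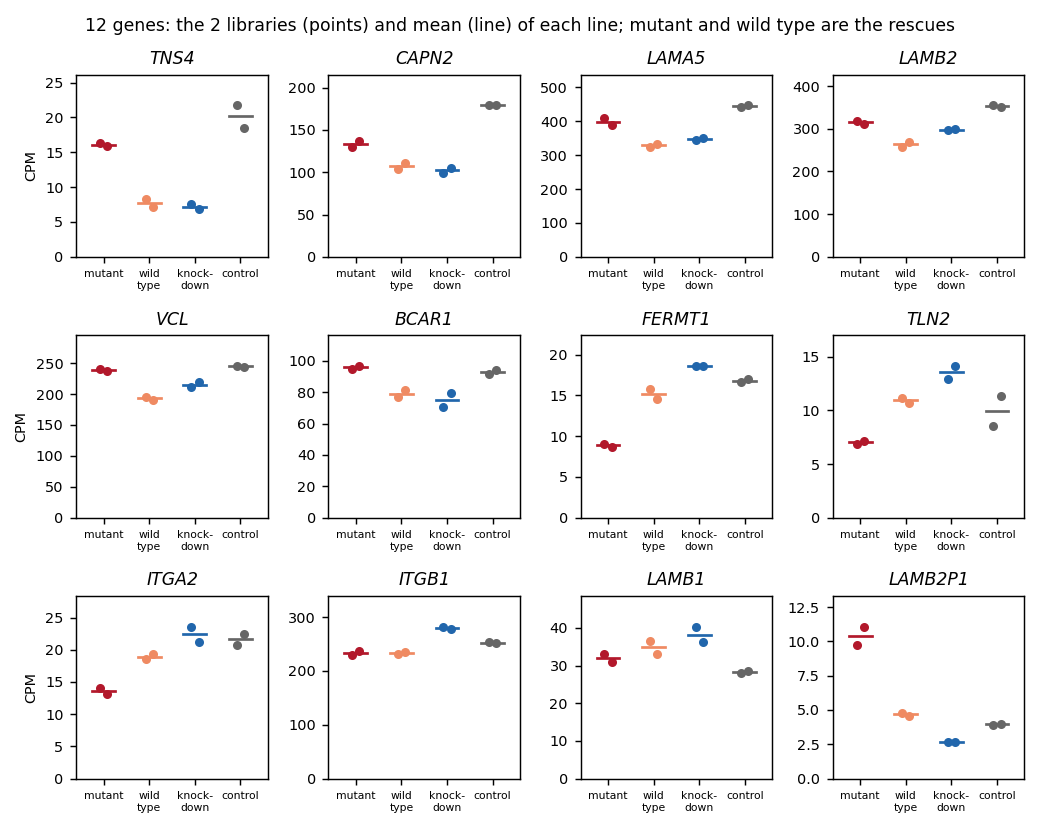
CPM from 0 of 12 genes in the 4 lines, with the mutant rescue at the left and the control at the right; points are the 2 libraries and the line is their mean. In the mutant rescue TNS4, CAPN2, LAMA5, VCL and BCAR1 lie above the knockdown, and FERMT1, TLN2 and ITGA2 below it.

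The rescues were then set directly against each other, which compares lines whose introduced METTL3 lacks or keeps its catalytic activity. Their METTL3 transcript levels differed by a log2 fold change of 0.07. Mutant rescue against wild-type rescue called 17 of the 36, 12 higher and 5 lower, while 41.3% of all tested genes were called, 21% higher and 20.3% lower. Libraries did not overlap in 24 of the 36, against 67.7% of all tested genes. The median absolute log2 fold change of the 36 was 0.128, against 0.168 over all tested genes. The 12 that rose were 4 of 7 signalling proteins (PXN, ILK, BCAR1 and CAPN2), 3 of 11 activators and linkers (VCL, ACTN4 and TNS4), 3 of 6 matrix chains (FN1, LAMA5 and LAMB2), ITGAV and LAMB2P1. EdgeR called 0 of the 4 tested integrin beta chains (0 at an unadjusted p under 0.05 and 0 by DESeq2), where ITGB1 did not move beyond its error (log2 fold change 0.00 with SE 0.03).

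TNS4 rose most among the protein-coding genes (log2 fold change 1.07 with SE 0.11 and adjusted p = 2.54e-15 by edgeR). VCL (log2 fold change 0.31 with SE 0.03 and adjusted p = 7.57e-20 by edgeR), CAPN2 (log2 fold change 0.31 with SE 0.04 and adjusted p = 3.1e-13 by edgeR), BCAR1 (log2 fold change 0.28 with SE 0.04 and adjusted p = 3.73e-08 by edgeR), LAMA5 (log2 fold change 0.27 with SE 0.02 and adjusted p = 5.79e-21 by edgeR), LAMB2 (log2 fold change 0.26 with SE 0.03 and adjusted p = 2.67e-17 by edgeR) and ILK (log2 fold change 0.23 with SE 0.04 and adjusted p = 9.24e-07 by edgeR) had both mutant rescue libraries above both wild-type rescue libraries. The smaller rises were ACTN4 (0.11, SE 0.02), PXN (0.11, SE 0.03), ITGAV (0.09, SE 0.03) and FN1 (0.08, SE 0.02). PXN ended without mutant rescue replicate 2 (adjusted p = 0.196) and ITGAV without mutant rescue replicate 1 (0.0567).

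FERMT1 (log2 fold change -0.77 with SE 0.11 and adjusted p = 9.76e-10 by edgeR), TLN2 (log2 fold change -0.63 with SE 0.13 and adjusted p = 1.27e-05 by edgeR) and ITGA2 (log2 fold change -0.48 with SE 0.09 and adjusted p = 7.21e-06 by edgeR) were lower in both mutant rescue libraries than in both wild-type rescue libraries. LAMA3 (log2 fold change -0.16 with SE 0.06 and adjusted p = 0.0181 by edgeR) and ACTN1 (log2 fold change -0.09 with SE 0.04 and adjusted p = 0.0471 by edgeR) fell by less. LAMA3 ended without replicate 1 of the mutant rescue (adjusted p = 0.225) or of the wild-type rescue (0.126), and ACTN1 ended when any 1 library of the mutant rescue (0.146 and 0.113), the wild-type rescue (0.109 and 0.137) or the control (0.063 and 0.0623) was left out. By DESeq2's Wald test LAMA3 (0.143), ACTN1 (0.207) and ITGAV (0.0765) were not called. With the length trend removed 13 rose and 6 fell. Over the 36 genes the Spearman correlation of log2 fold change with length was -0.494, against 0.0123 over all tested genes. The trend removed was fitted over all tested genes, so a trend among these genes alone would remain.

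LAMB2P1, a transcribed laminin beta2 pseudogene that RefSeq (GRCh38.p14) places near LAMB2 on chromosome 3, rose most of the called genes in the mutant rescue, against both the knockdown and the wild-type rescue. It had 9.73 and 11.1 CPM in mutant rescue libraries, 4.77 and 4.59 in wild-type rescue libraries, 2.65 and 2.67 in knockdown libraries, and 3.92 and 3.97 in control libraries. The mutant rescue lay above the wild-type rescue (log2 fold change 1.16 with SE 0.14 and adjusted p = 3.28e-12 by edgeR), and the wild-type rescue above the knockdown (log2 fold change 0.81 with SE 0.19 and adjusted p = 0.000441 by edgeR), with no overlap. LAMB2P1 counts per 100 LAMB2 counts were 3.05 and 3.55 in the mutant rescue, 1.85 and 1.70 in wild-type rescue libraries, 0.895 and 0.889 in knockdown libraries, and 1.10 and 1.13 in the control, so the 2 genes did not move in proportion. Reads shared by the copies could not be checked, so the split between them is uncertain. Its fall from control in the knockdown (log2 fold change -0.57 with SE 0.20 and adjusted p = 0.0142 by edgeR) ended without any 1 of the knockdown or control libraries, at adjusted p of 0.0512 to 0.0686.

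CD44, the hyaluronan receptor, was almost silent. It had 12 and 3 counts in the mutant rescue, 33 and 5 in wild-type rescue libraries, 9 and 8 in knockdown libraries, and 1 and 5 in the control. Wild-type rescue replicate 1 stood apart, and VIM, encoding the mesenchymal filament vimentin, was also highest there, at 229 counts, against 106 to 160 in the other libraries. CD44 was called in none of the 6 comparisons (wild-type rescue over knockdown 1.15, SE 1.00), but without wild-type rescue replicate 2 the adjusted p was 0.000103 for wild-type rescue against knockdown, 3.84e-05 for mutant rescue against wild-type rescue and 6.64e-09 for wild-type rescue against control. Without the filter on low counts edgeR's adjusted p was 0.0405 for mutant rescue against wild-type rescue and 7.13e-05 for wild-type rescue against control.

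Knockdown against control and mutant rescue against wild-type rescue share no library. Of the 15 genes that fell in the knockdown, 9 (60%) were higher in the mutant than in the wild-type rescue: VCL, ACTN4, TNS4, PXN, BCAR1, CAPN2, LAMA5, LAMB2 and LAMB2P1. These are 75% of the 12 that were higher in the mutant rescue. Over all tested genes 1044 did both, which is 27.3% of the 3831 that fell and 32.6% of the 3206 that were higher in the mutant rescue. Some of the 9 rest on weak calls. By DESeq2's Wald test the knockdown falls of ACTN4 (adjusted p = 0.157) and LAMB2P1 (0.1) ended. PXN's rise in the mutant rescue shrank from 0.11 to 0.06 without mutant rescue replicate 2. LAMB2P1 and LAMB2 may also share reads. Of the 11 genes that rose in the knockdown, 2 (18.2%), TLN2 and LAMA3, were lower in the mutant than in the wild-type rescue and 2 (18.2%), ITGAV and FN1, were higher, against 27.5% lower and 22.8% higher among all tested genes that rose. ACTN1 fell in both comparisons. The genes were listed with earlier results of these data known, so these counts describe them and are no test of the set.

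**Figure D5:**
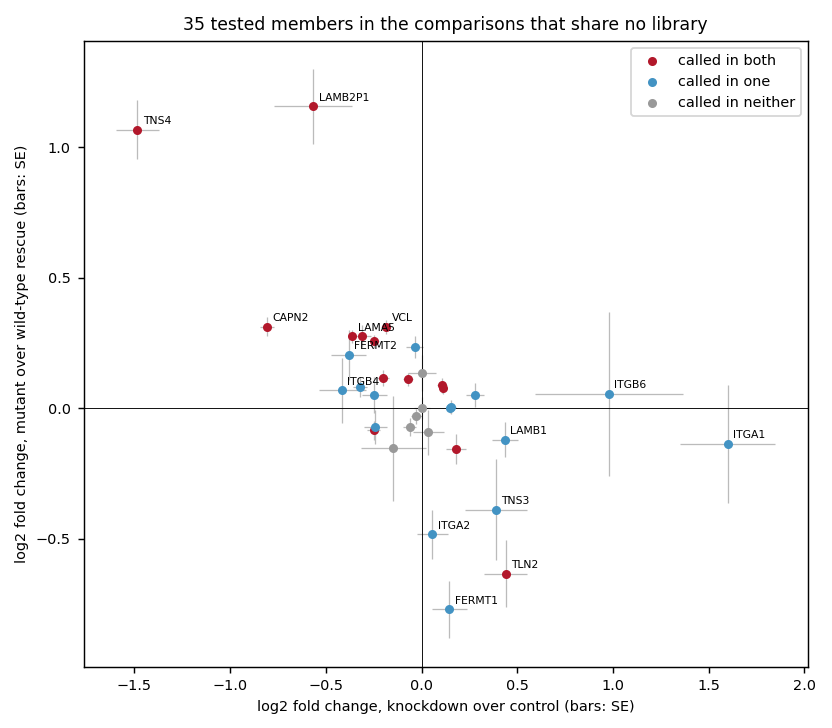
Log2 fold change of 35 tested genes for knockdown over control (x axis) and for mutant rescue over wild-type rescue (y axis), with standard errors as bars and colours for genes called in both, in 1 or in neither. TNS4 lies at the left of the x axis and high on the y axis, at -1.48 and 1.07, and TLN2 at 0.44 and -0.63.

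Both rescues were also set against the control. Wild-type rescue against control called 24 of the 36, 5 higher and 19 lower, while 49.3% of all tested genes were called, 23.8% higher and 25.5% lower. Libraries of these 2 lines were apart in 31 of the 36, against 72.7% of all tested genes. Mutant rescue against control called 29 of the 36, 8 higher and 21 lower, while 58.8% of all tested genes were called, 29.1% higher and 29.7% lower. Here libraries were apart in 34 of the 36, against 77.7% of all tested genes. The median log2 fold changes of the 36 genes were -0.15 for the mutant rescue and -0.16 for the wild-type rescue, against 0.00 over all tested genes in both. In absolute size the median was 0.244 for the mutant rescue, against 0.259 over all tested genes. For the wild-type rescue it was 0.243, against 0.200.

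The rescues differed in which transcripts were called against the control. VCL (-0.03, SE 0.03), BCAR1 (0.05, SE 0.04) and FN1 (0.00, SE 0.02) were not called in the mutant rescue, whereas in the wild-type rescue VCL fell by 0.34 (SE 0.03), BCAR1 by 0.23 (SE 0.04) and FN1 by 0.08 (SE 0.02). Conversely, in the mutant rescue ACTN4 (0.11, SE 0.02) was higher than the control and TLN2 (-0.50, SE 0.13) and LAMA3 (-0.23, SE 0.06) lower, whereas in the wild-type rescue ACTN4 (0.00, SE 0.02), TLN2 (0.13, SE 0.12) and LAMA3 (-0.07, SE 0.05) were not called. Without control replicate 2, TLN2 was not called in the mutant rescue (-0.28, adjusted p = 0.15) and was called higher in the wild-type rescue (0.35, adjusted p = 0.0449). TNS4 remained below the control by 0.32 (SE 0.09) in the mutant rescue and by 1.39 (SE 0.11) in the wild-type rescue, and the mutant rescue's call ended without control replicate 1 (adjusted p = 0.156) and by DESeq2's Wald test (0.0764). CAPN2 remained lower by 0.42 (SE 0.03) in the mutant rescue and by 0.73 (SE 0.03) in the wild-type rescue. ACTN1 was lower than the control by 0.46 (SE 0.03) in the mutant rescue and 0.38 (SE 0.03) in the wild-type rescue. TLN1 was lower by 0.33 (SE 0.03) in the mutant rescue and 0.30 (SE 0.03) in the wild-type rescue.

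ITGA5 stayed above the control in both rescues, by 0.35 (SE 0.05) in the mutant rescue and 0.30 (SE 0.05) in the wild-type rescue. ITGB1 and ITGB5 lay below it in both. For ITGB1 the log2 fold changes were -0.11 in the mutant rescue and -0.11 in the wild-type rescue, and for ITGB5 they were -0.32 in the mutant rescue and -0.25 in the wild-type rescue. FERMT1 was below the control in the mutant rescue (log2 fold change -0.92 with SE 0.11 and adjusted p = 1.25e-13 by edgeR) and was not called in the wild-type rescue (-0.15, SE 0.09).

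Other adhesion genes were counted in the same fits, from lists drawn up for their known roles but with earlier results of these data known. Their counts describe the lists and are no test of them. Shares of all tested genes were 22.9% higher and 25.1% lower for the knockdown against the control. For the mutant against the wild-type rescue these shares were 21% and 20.3%. Of 27 other focal adhesion plaque genes, 4 rose and 12 fell in the knockdown against the control, and 6 rose and 3 fell in the mutant relative to the wild-type rescue. FLNA, the actin crosslinker filamin A that competes with talin for integrin tails, had log2 fold changes of -0.34 (SE 0.02) and 0.26 (SE 0.02) in the same 2 comparisons. RSU1, a partner of PINCH1, fell in the mutant relative to the wild-type rescue (log2 fold change -0.47 with SE 0.08 and adjusted p = 5.81e-08 by edgeR). Of 30 adhesion kinases, GTPase regulators and proteases 10 rose and 4 fell in the knockdown, among the rises PAK1 (0.36, SE 0.08), a kinase downstream of Rac. In the mutant relative to the wild-type rescue 8 rose and 6 fell, with the adaptors CRKL (0.39, SE 0.03) and CRK (0.31, SE 0.04), which bind p130Cas, among the rises.

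Of 11 other integrin subunits tested, edgeR called 0 in the knockdown against the control (0 at an unadjusted p under 0.05 and 0 by DESeq2), and likewise 0 in either rescue against the knockdown. Their log2 fold changes ran from -0.78 to 0.43 in the knockdown against the control, so the lack of a call does not show a lack of change. Mutant rescue against control called 1 higher and 1 lower. Of 14 other laminin chains and basement membrane genes 2 rose and 4 fell in the knockdown, against 22.9% higher and 25.1% lower over all tested genes. COL7A1, which forms the anchoring fibrils beneath basement membranes, fell (log2 fold change -0.70 with SE 0.05 and adjusted p = 2.38e-30 by edgeR), and the collagen IV chain COL4A5 rose (0.29, SE 0.03). Of 9 hemidesmosome and tetraspanin genes 1 rose and 4 fell, with rises for DST (0.62, SE 0.06) and falls for TSPAN4 (-0.46, SE 0.07) and CD9 (-0.23, SE 0.02). Of 19 dystroglycan and other matrix receptor genes 7 rose and 2 fell, and the syndecans, heparan sulphate proteoglycans that assist integrins, went both ways, with a rise for SDC2 (0.61, SE 0.06) and a fall for SDC1 (-0.51, SE 0.04).

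Of 13 matrix proteases and inhibitors 4 rose and 3 fell in the knockdown, against 22.9% higher and 25.1% lower over all tested genes. MMP16, a membrane-bound matrix metalloproteinase, rose in the knockdown (log2 fold change 1.04 with SE 0.10 and adjusted p = 1.55e-19 by edgeR) and fell in the mutant relative to the wild-type rescue (log2 fold change -1.28 with SE 0.12 and adjusted p = 5.9e-19 by edgeR). Of 18 other interstitial matrix genes 4 rose and 1 fell, with the largest called change at over 5 CPM being COL1A1 (0.12, SE 0.04), which ended without knockdown replicate 2 (adjusted p = 0.473) or control replicate 1 (0.0733). Of 17 YAP and SRF pathway genes 3 rose and 7 fell, among them the coactivator YAP1 (log2 fold change 0.67 with SE 0.03 and adjusted p = 2.54e-49 by edgeR), the tropomyosin TPM4 (-0.56, SE 0.04) and the cytoplasmic actin ACTG1 (-0.46, SE 0.02).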

How the data were processed

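Stranded messenger RNA libraries were prepared from TRIzol-extracted total RNA, per the labels' protocols. CASAVA, STAR 2.5.2b, featureCounts and DESeq2 are named in the submitters' processing notes, with hg19 as the build and no parameters. The deposited table gives raw counts per gene in 8 libraries, and the authors' length of each gene in bases (of other kind).

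The 38 genes and the wider lists were chosen with earlier results of these data known. In edgeR 4.0.16 (R 4.3.3), filterByExpr by group (minimum count 10, minimum total 15) kept 15289 of 27140 genes, TMM set the library scale, and a robust quasi-likelihood model estimated 4 group means from all 8 libraries. Each of 6 contrasts was tested two-sided with Benjamini-Hochberg adjustment over all tested genes, and 0.05 was the limit for a call. A standard error here is |log2 fold change| over the square root of F. Libraries within a line differed slightly more than by count sampling alone (chi-square per degree of freedom 1.21 to 1.35), and the biological coefficient of variation was 1.40%. These values cannot tell separate cultures from technical copies, because library preparation also adds spread. A permutation test of 2 against 2 libraries cannot reach 0.05. Depth was 15200343 to 17893241 counts a library, and reads without molecular identifiers are not independent molecules.

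Alternatives were DESeq2 1.42.0 size factors and Wald test, no filter on low counts, a fit of only the groups compared, a replicate block, leaving out each library, and a lowess offset (span 0.3) of log2 CPM over log2 length. Values in every library are given for METTL3, ITGB1, FN1 and genes that, in any comparison, were called, averaged at least 5 CPM and were among the 8 largest rises or falls; a few others are given too. Up to 4 genes a wider list are named, by the largest called change at 5 CPM or more. Steps were tested on simulated data. GENCODE v29 transcripts gave the motif windows on GRCh38, which is not the build of the counts, so no coordinates were converted.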

Additional observations from a re-analysis of the deposited data

How the results depend on the processing

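The call counts of the 36 tested genes and of all tested genes, higher and lower in 6 comparisons, stayed within 1.5 times of the reported values under DESeq2 size factors, without the filter on low counts and with only the groups compared. No paired analysis was used as the main one, because the labels state no batch and no pairing. Correlations of same-numbered libraries' deviations were -0.0424 to 0.025, which cannot exclude pairs, since counting noise enters each deviation. With the replicate block the adhesion and matrix genes gave 11 higher and 15 lower for knockdown against control, 4 higher and 14 lower for wild-type rescue against knockdown, and 12 higher and 6 lower for mutant rescue against wild-type rescue, and CD44 was called in the last 2 (adjusted p = 0.0424 and 0.0266) and for wild-type rescue against control (7.55e-05).

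The DESeq2 Wald test ended 34 calls of these genes over the 6 comparisons, more than any other setting, and gave 0 higher and 8 lower of these genes for wild-type rescue against knockdown, 3 lower for mutant rescue against wild-type rescue and 3 higher for wild-type rescue against control. Over all tested genes it gave 2390 lower for knockdown against control, 606 higher and 1099 lower for wild-type rescue against knockdown, 2636 higher for mutant rescue against knockdown, 1947 higher and 1802 lower for mutant rescue against wild-type rescue, and 2419 higher and 2576 lower for wild-type rescue against control. With the length trend removed, 7 rose for knockdown against control and 9 fell for wild-type rescue against knockdown. It reversed LAMA5 (0.0599) and PLEC (0.0248, a hemidesmosome linker) for wild-type rescue against knockdown and ITGAV (0.0255) and FN1 (0.0126) for mutant rescue against knockdown, none called after it. DESeq2 gave no adjusted p for 4 calls of these genes, which are not counted as lost. The cause of these shifts was not tested.

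Leaving out 1 library at a time, the adhesion and matrix genes gave 1 to 3 higher for wild-type rescue against knockdown (lowest without knockdown replicate 1), 11 to 17 lower for mutant rescue against knockdown (lowest without knockdown replicate 1), 3 to 6 lower for mutant rescue against wild-type rescue (lowest without wild-type rescue replicate 1) and 3 to 6 higher for wild-type rescue against control (lowest without wild-type rescue replicate 1 or control replicate 1). Over all tested genes, 960 to 1739 were higher for wild-type rescue against knockdown, with 960 without knockdown replicate 1 and 1069 without wild-type rescue replicate 2. The lone library of a line was then assumed to vary like the others. Depth limits ITGB3, ITGB8, CD44 and ITGB6, whose counts were low in every library.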
